A study of Homo sapiens with 2 samples.

Results

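The genes described here are the DNAJ co-chaperones and the HSPA chaperones of HEK-293 cells with and without a miR-204 mimic. Members were all array probes, other than control spots, whose gene name is DNAJ followed by A, B or C and a number, or HSPA followed by a number and at most 1 letter, with HSPA5 left out. No measured value entered this rule. It gave 45 genes, 34 of them DNAJ and 11 HSPA, among 30484 gene names on the array, and 76 probes among 41000. The array's names are those of its design, and 44 of the 45 are still in use. DNAJA5 is now called DNAJC21.

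HEK-293 is an established human embryonic kidney line. In one culture condition the cells received miR-204-mimic, a synthetic copy of the microRNA, and in the other, the control, scramble oligos, both at 75 nM for 48 h. The RNA of both was read together on 2-colour Agilent whole genome arrays, where control and miR-204 RNA compete for each probe, and a second array repeated this with the dyes exchanged. The labels name no second transfection, so the 2 arrays were 1 replicate and no spread between cultures could be measured.

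HSP70 proteins, which the HSPA genes encode, bind exposed hydrophobic stretches of other proteins and release them in a cycle driven by ATP. DNAJ proteins carry a J domain that speeds ATP hydrolysis by HSP70, and many of them also bring the client or hold HSP70 at a membrane, a ribosome or a vesicle. Nucleotide exchange factors, among them the HSP110 proteins and the BAG proteins, then let ATP back in and the client out. Type A J proteins have the full domain set of bacterial DnaJ, type B lack its zinc-binding region, and type C share only the J domain. Some members of both families are made at all times, while others are switched on by heat shock factor after heat or misfolding.

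The microRNA that was added is shown with its seed, bases 2 to 8 from the 5′ end and the part that pairs with targets, in capitals. In RefSeq on GRCh38.p14 it lies on the minus strand at chr9:70810031-70810052.
hsa-miR-204-5p: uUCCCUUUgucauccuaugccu

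Target sites in the members' 3′ UTRs were not analysed here. The promoters of the members were read instead, since many heat shock genes share a DNA motif there. Heat shock factor binds alternating units of GAA and TTC, each 2 bases from the next. The 250 bases before each start site in the RefSeq promoter table were searched on both strands, in 35116 windows of all genes and in 56 windows of the 42 members found in the table. Arrays of 3 alternating units lay in 0.441% of all windows and in 3 of the 56 member windows, those of DNAJB6, HSPA6 and HSPA8. Pairs of units, which every array of 3 also contains, lay in 11.6% of all windows and in 12 of the member windows (21.4%). The matches with 3 units, and the pair before HSPA1A, are shown because they are the longest matches among members and because HSPA1A is the classic heat-inducible HSP70. The units and the bases between them are in capitals, and each is read 5′ to 3′ on the strand of its gene in GRCh38.p14.
HSPA8, chr11:123062164-123062206, minus strand: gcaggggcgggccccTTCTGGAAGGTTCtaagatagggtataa
HSPA8, chr11:123062339-123062381, minus strand: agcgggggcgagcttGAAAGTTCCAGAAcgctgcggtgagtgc
HSPA6, chr1:161524451-161524493, plus strand: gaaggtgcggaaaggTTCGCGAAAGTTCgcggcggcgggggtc
DNAJB6, chr7:157336858-157336900, plus strand: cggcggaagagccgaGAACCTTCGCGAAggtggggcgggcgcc
HSPA1A, chr6:31815422-31815459, plus strand: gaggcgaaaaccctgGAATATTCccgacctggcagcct

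In HSPA8, the match nearer to the gene ran from 55 to 43 bases before the start site and the other from 230 to 218. The match of HSPA6 lay 74 to 62 bases before its start, that of DNAJB6 131 to 119 and the pair of HSPA1A 106 to 99. The HSPA1A pair is also a match of HSPA1L, which is read from the opposite strand, 161 to 154 bases before its own start. The other members with a pair were DNAJA1, DNAJA4, DNAJB1, DNAJB4, DNAJB7, DNAJC15 and HSPA4L. An endoplasmic reticulum stress element, taken as CCAAT and CCACG with 9 bases between them, was found in 0.074% of all windows and in none of the 56 member windows. These are matches of letters in a window of fixed length, and binding was not measured.

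Most members gave a signal in these cells. A gene was counted where at least 1 of its probes stood well above background in the same RNA on both of the arrays, be it the control or the miR-204 RNA, and 40 of the 45 members met this, with 66 of the 76 probes. Detection in all 4 channels was reached by 63 of those. Over the whole array, 18585 of 30484 gene names were counted, with 25270 of 41000 probes. By channel, the member probes well above background numbered 67 (miR-204) and 66 (control) on the first array, and 63 (miR-204) and 67 (control) on the dye-swap array. The shares of all probes in these channels, in the same order, were 64.21%, 62.25%, 57.17% and 66.06%. No member probe was saturated or flagged as an outlier. The 5 members not counted were DNAJA4, the DNAJB7 and DNAJB8 genes known from testis, HSPA12B and HSPA6. HSPA6, a strictly stress-inducible HSP70, had 1 probe, which cleared background only with miR-204 RNA on the first array and only with control RNA on the dye-swap array, so that neither RNA was measured on both arrays. HSPA1B and HSPA5 were not analysed here.

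The label of the cells was set against marker genes. Of 10 genes listed for HEK-293, 9 were counted, neurofilament NEFL and INA, vimentin (VIM), keratins KRT8 and KRT18 and LHX1 among them, and PAX2 was not. Of 5 fibroblast and liver markers, COL1A1 and DCN were counted, while ALB, APOA1 and COL1A2 failed the filter in each RNA. The blood genes PTPRC, CD3E, CD14 and HBB failed it as well. As RNA was taken from whole cultures, fewer cells of a kind and less RNA per cell cannot be told apart.

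The members differed little between miR-204 overexpressing and control cells. Ratios below are log2 of miR-204 over control after quantile normalization of the 4 channels, averaged over the counted probes of a gene, so that 0 is no difference and 1 is 2-fold. No member was lower or higher by 2-fold in the mean of the arrays with the same sign on both (0 of 40), while 0.452% of the 18585 counted genes were lower and 0.151% higher by this rule. At 1.5-fold (0.585 in log2), 1 member, DNAJB5, was lower (2.5%, against 2.06% of all counted genes) and none was higher (against 1.44%). The median over the 40 members was 0.02 in the mean of the arrays, 0.06 on the first and 0.02 on the dye-swap array. Over all counted genes the corresponding medians were 0.00, 0.02 and -0.00. Member means ran from -0.59 to 0.43, with an SD across members of 0.22 (n = 40 genes), and the SD across all counted genes was 0.26.

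Agreement of sign between the arrays was given by 20 of the 40 members. Of these, 14 were higher in the miR-204 RNA on both arrays (35%, against 24.5% of all counted genes) and 6 were lower on both (15%, against 22.8%). The other 20 had opposite signs, as did 9791 of the 18585 counted genes. These shares of all counted genes are also the background for the counts by list below, which were not tested. The absolute difference between a member's arrays had a median of 0.24, against 0.31 over all counted genes, and so was larger than most member means. Across the 40 members the arrays correlated with a Pearson r of 0.10 and a Spearman rho of 0.04, and across all counted genes with -0.02 and -0.05, values that describe genes of 1 pair of arrays and not independent samples.

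**Figure D1:**
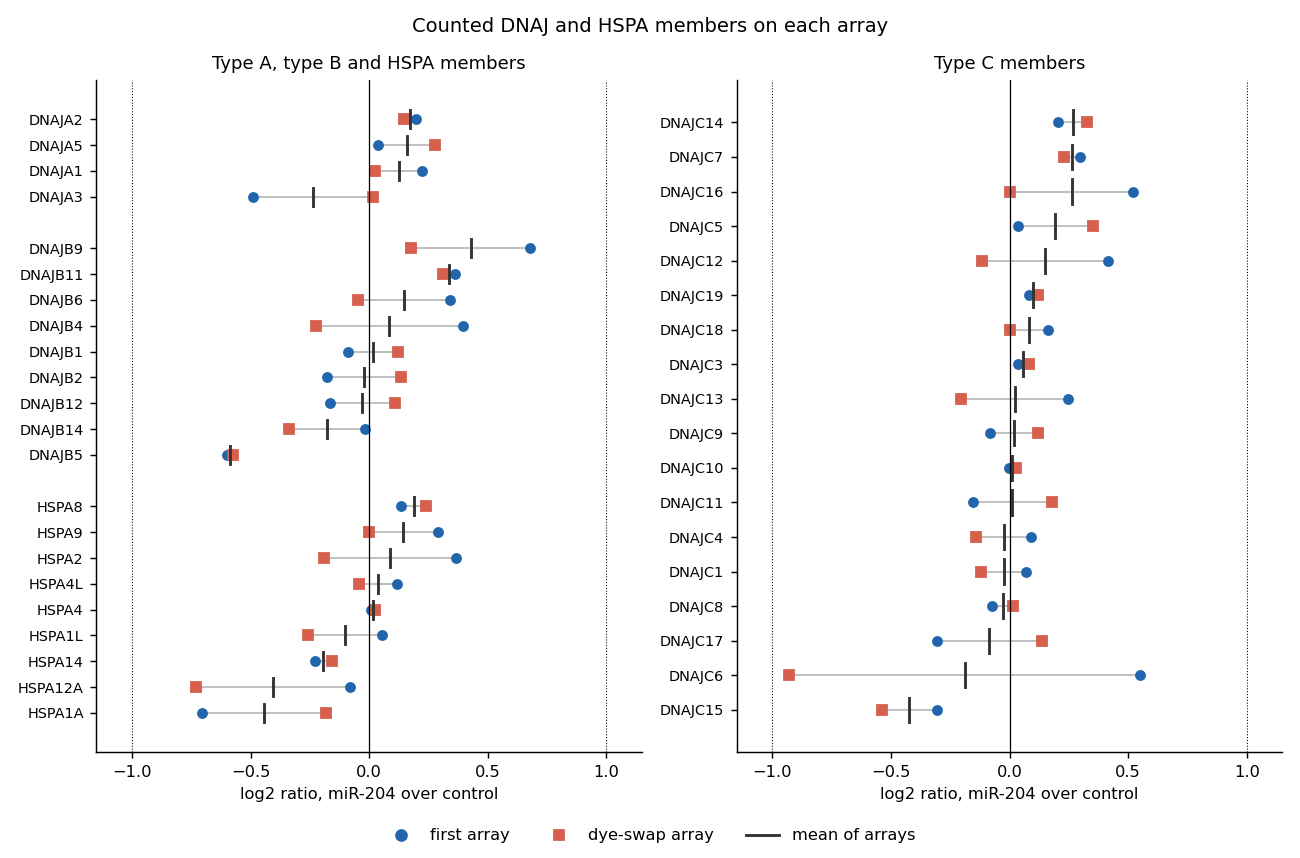
Log2 ratio of miR-204 over control for each of the 40 counted members on the first array (circles) and the swap (squares), with the mean as a vertical bar, and with type A, type B and HSPA members on the left and type C on the right. Dotted lines mark 2-fold, which no mean reached, and in 20 members the circle and the square lie on opposite sides of 0.

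**Figure D2:**
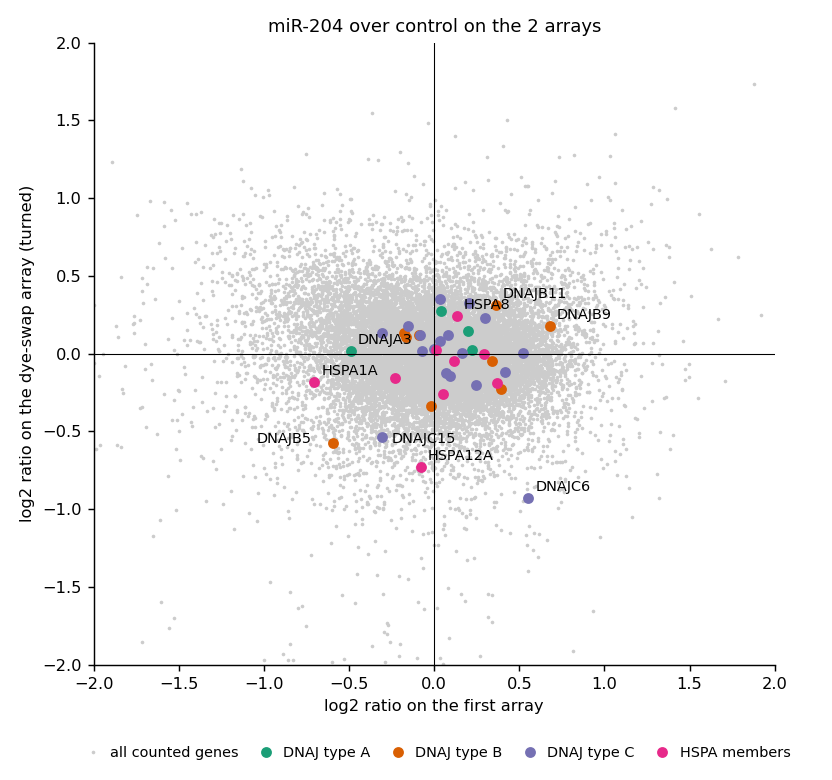
Log2 ratio of each counted gene, the first array on the x axis and the dye-swap array on the y axis, with all counted genes in grey and the members coloured by class. Members lie within the grey cloud, DNAJB5 is far from 0 on both axes, DNAJC6 has opposite signs, and 49 of the 18585 counted genes lie beyond the axes.

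DNAJB5, a type B J protein of cytosol and nucleus, was the lowest member, and its arrays lay close together. Its single probe, at chr9:34988281-34988340 on the plus strand of hg18, gave a processed signal of 899 in the control and 585 with miR-204 on the first array. On the dye-swap array the signals were 567 in the control and 383 in the miR-204 RNA. The miR-204 RNA was the dimmer on each array, with log2 ratios of -0.60 and -0.58 and a mean of -0.59. The difference between the arrays divided by 2, the part that turns with the dye or the array, was -0.01. Of all counted genes, 2.37% had a mean at or below it. The mean lay just past the 1.5-fold limit, at 0.585, and with another background correction and normalization it lay just short of it at -0.57.

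HSPA1A, the heat-inducible HSP70 of cytosol and nucleus, had the next lowest mean. Its ratio over 3 probes was -0.71 on the first array but -0.18 on the dye-swap array, and the mean was -0.45. All of its probes were lower in the miR-204 RNA on both arrays, by amounts that differed along the gene. The probe at chr6:31893470-31893529, which names HSPA1A transcripts alone, read 182355 in the control and 145269 with miR-204 on the first array. On the dye-swap array it read 116772 and 92828, so that its log2 ratios were -0.33 and -0.29. The probe at chr6:31892373-31892432 read 19397 in the control and 8285 with miR-204 on the first array, but 9431 and 9175 on the dye-swap array. Its log2 ratios of -1.19 and -0.04 made it the only member probe past 2-fold on the first array and almost level on the other. The probe between them, at chr6:31892924-31892983, had ratios of -0.60 and -0.22. This probe and the one at -1.19 are annotated to transcripts of both HSPA1A and HSPA1B, a nearly identical neighbour, so the gene they read is uncertain. The mean of HSPA1A over probes thus rests on the first array more than on the second, and its probe specific to HSPA1A gave -0.31.

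HSPA8, the constitutive HSC70 that folds new chains and strips clathrin from vesicles, was higher on both arrays. Its ratios were 0.13 and 0.24, with a mean of 0.19 over 4 probes. A pair of its probes, listed at the same place (chr11:122433484-122433543, minus strand of hg18), gave signals of 64872 and 66415 in the control and 73033 and 73121 with miR-204 on the first array. On the dye-swap array the pair gave 43601 and 44894 in the control and 51499 and 53740 in the miR-204 RNA. The ratios of this pair lay close together, at 0.24 and 0.22 for one probe and 0.21 and 0.24 for the other. The third probe, which overlaps them, gave 0.30 and 0.22. The fourth, at chr11:122435629-122435688, was opposite in sign between the arrays, at -0.21 and 0.29. The search, which took exact units only, found matches of 3 units before HSPA8 and a pair before HSPA1A (shown above). Whether the motifs bear on the ratios of these genes was not tested.

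The other HSPA members of the cytosol were spread around 0. HSPA14, which works with a J protein at the ribosome, was lower on both arrays, at -0.23 and -0.16. HSPA1L, made mainly in testis and sharing the promoter window of HSPA1A, gave 0.05 and -0.26. HSPA2, also abundant in testis, gave 0.37 and -0.19. Among the HSP110 proteins that exchange nucleotide on HSP70, HSPA4 was almost level on both arrays, at 0.01 and 0.02, and HSPA4L gave 0.12 and -0.05. HSPA9, the HSP70 of the mitochondrial matrix, gave 0.29 and -0.00. Over the 9 counted HSPA members, 3 were lower on both arrays, 2 were higher on both and 4 had opposite signs, with a median of 0.02. By array, the median of the 9 was 0.05 on the first and -0.16 on the dye-swap array.

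HSPA12A, a distant relative of HSP70, was low in the mean only through a dim probe. Its probe at chr10:118440765-118440824 read 66.3 in the control and 61.2 with miR-204 on the first array, then 22.2 and 7.19 on the dye-swap array, where the miR-204 signal was not well above background. The ratios of that probe were -0.11 and -1.64. The bright probe, at chr10:118420780-118420839, read 2608 and 2449 on the first array, against 1701 and 1926 on the other, which gave -0.05 and 0.18. The gene's mean of -0.40 became 0.06 over probes detected in all 4 channels.

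**Figure D3:**
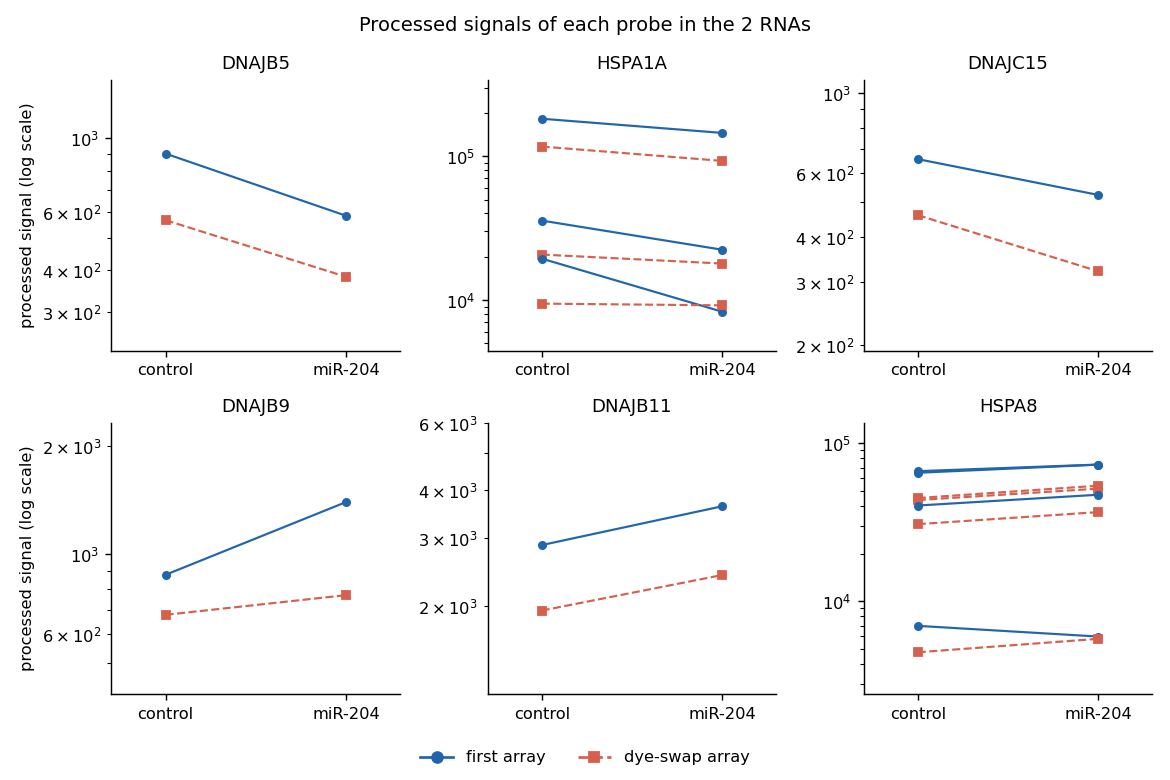
Processed signal of each counted probe (log scale, a scale of its own in each panel) in control and miR-204 RNA, on the first array (solid, circles) and on the dye-swap array (dashed, squares), for 6 members. Lines fall from control to miR-204 on both arrays for DNAJB5, DNAJC15 and all 3 HSPA1A probes and climb for DNAJB9 and DNAJB11, while 1 of the 4 HSPA8 probes falls on the first array only.

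Of the type A J proteins, the general HSP70 partners, 4 were counted. Higher on both arrays were 3 of them, DNAJA5 included, against 24.5% of all counted genes. DNAJA1, which serves HSC70 in folding and import, gave 0.22 and 0.02, and its 3 probes had means of 0.31, 0.06 and 0.01. DNAJA2 gave 0.20 and 0.15. DNAJA5, now DNAJC21, a factor of ribosome maturation that the array names as type A, gave 0.04 and 0.28. Its probes disagreed, with means of 0.40 and 0.20 for those at chr5:34991452-34991511 and chr5:34991181-34991240 and -0.13 for the brightest, at chr5:34986152-34989794. DNAJA3, the mitochondrial type A protein, was at -0.49 on the first array and level at 0.02 on the dye-swap array. Its single probe read 6798 in the control and 4778 with miR-204 on the first array but 4548 and 4612 on the dye-swap array.

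Among the 9 counted type B J proteins, 2 were lower on both arrays (DNAJB5 and DNAJB14) and 2 higher on both (DNAJB9 and DNAJB11). DNAJB9, an endoplasmic reticulum protein that binds misfolded clients and is induced by the unfolded protein response, had the highest mean of all members. Its probe, at chr7:108001751-108001810, read 877 in the control and 1397 with miR-204 on the first array. On the dye-swap array it read 679 in the control and 770 in the miR-204 RNA. The ratios were 0.68 and 0.18, with a mean of 0.43, and 3.88% of counted genes had a mean at or above it. DNAJB11, which helps HSP70 of the endoplasmic reticulum fold secreted proteins, came next. Its probe, at chr3:187784958-187785017, read 2879 in the control and 3636 with miR-204 on the first array, then 1941 and 2404 on the dye-swap array. These gave 0.36 and 0.31, a mean of 0.34, and the arrays lay closer together for DNAJB11 than for DNAJB9.

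DNAJB1, the classic heat-inducible partner of HSP70, gave -0.09 and 0.12, a mean of 0.02. DNAJB6, a suppressor of protein aggregation whose promoter match is shown above, gave 0.34 and -0.05 over 4 probes. DNAJB4 gave 0.39 and -0.23 and DNAJB2, a J protein abundant in neurons, -0.18 and 0.13. The related J proteins DNAJB12 and DNAJB14, which sit in the endoplasmic reticulum membrane with the J domain in the cytosol, gave -0.17 and 0.11, and -0.02 and -0.34. Only DNAJB14 of these had the same sign on both arrays.

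Of the 18 type C J proteins, all were counted, 7 were higher on both arrays, 1 was lower on both and 10 had opposite signs, with a median of 0.02. DNAJC15, a J protein of the inner mitochondrial membrane that restrains the respiratory chain, was the lower one. Its probe, listed at chr13:42550818-42557956, read 655 in the control and 521 with miR-204 on the first array, then 458 and 321 on the dye-swap array. The ratios were -0.31 and -0.54, a mean of -0.42, and 5.20% of counted genes were at or below it. DNAJC19, its relative in the mitochondrial import motor, gave 0.08 and 0.12, with means of 0.32 and -0.12 for its 2 probes.

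DNAJC14, a J protein of the endoplasmic reticulum membrane that assists receptor export, had the highest type C mean. Its counted probe, at chr12:54501189-54501248, read 1521 in the control and 1737 with miR-204 on the first array, then 963 and 1207 on the dye-swap array, for ratios of 0.20 and 0.33 and a mean of 0.26. DNAJC7, whose TPR repeats hold HSP70 and HSP90, gave 0.30 and 0.23. DNAJC16, a J protein of the endoplasmic reticulum membrane, was at 0.52 on the first array and level at 0.00 on the other. DNAJC5, the cysteine string protein of secretory vesicles, gave 0.04 and 0.35, and DNAJC3, an endoplasmic reticulum J protein, 0.03 and 0.08. DNAJC18 gave 0.16 and 0.00.

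DNAJC6 differed most between the arrays. This J protein, auxilin, recruits HSC70 to strip clathrin from vesicles, above all in neurons. Its counted probe, at chr1:65651235-65651294, was dim, with 21.7 in the control and 32.4 with miR-204 on the first array. On the dye-swap array it read 18.5 in the control and 8.51 in the miR-204 RNA, the last not well above background. The ratios of 0.55 and -0.93 had opposite signs. GAK, the auxilin of most other tissues, likewise gave opposite signs, at -0.56 and 0.61.

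The other type C members stayed within 0.15 of 0 in the mean and had opposite signs on the arrays. DNAJC12, a partner of amino acid hydroxylases, gave 0.41 and -0.12, and DNAJC13, an endosomal J protein, 0.25 and -0.20. DNAJC17, found with the spliceosome, gave -0.31 and 0.13, and DNAJC11, a mitochondrial protein, -0.15 and 0.18. DNAJC8, also of the spliceosome, gave -0.08 and 0.02, and its probes disagreed. Their means were 0.05 for the brightest, 0.21 for its neighbour and -0.35 for the one at chr1:28407506-28409123. DNAJC9, which escorts histones, gave -0.09 and 0.12. DNAJC4, DNAJC1 and DNAJC10 had means of -0.03, -0.03 and 0.01.

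Grouped by compartment, 8 members listed as J proteins of the endoplasmic reticulum (DNAJB9, DNAJB11, DNAJB12, DNAJB14, DNAJC1, DNAJC3, DNAJC10 and DNAJC16) had a median of 0.03, with 4 higher on both arrays, 1 lower on both and 3 of opposite sign. The list left out DNAJC14 and DNAJC18, which also sit in that membrane. With both added after their values were seen, the 10 genes had a median of 0.07, with 6 higher on both arrays, 1 lower on both and 3 of opposite sign. The highest members, DNAJB9 and DNAJB11, were both in this group. A list of 5 mitochondrial J proteins (DNAJA3, DNAJC4, DNAJC11, DNAJC15 and DNAJC19) had a median of -0.03, with 1 higher on both arrays, 1 lower on both and 3 of opposite sign. By array, the median of the 5 was -0.15 on the first and 0.02 on the dye-swap array. Of all counted genes, 24.5% were higher and 22.8% lower on both arrays. DNAJC14 and DNAJC18 were each higher on both, so adding them by itself raised that count. Neither group was tested.

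The partners of the HSP70 cycle under other names were described with the members. Of 13 nucleotide exchange factors and regulators of HSP70, all were counted, 4 were lower and 3 higher on both arrays, none passed 1.5-fold and the median was 0.08. By array, the median of the 13 was -0.07 on the first and 0.05 on the dye-swap array. BAG1, an exchange factor, gave 0.38 and 0.55, and HSPH1, the inducible HSP110, 0.75 and 0.15. STUB1, the ubiquitin ligase that tags HSP70 clients, gave -0.72 and 0.05. The 7 J proteins named otherwise (GAK and SEC63 among them) had a median of 0.08, with 2 higher on both arrays and 5 of opposite sign.

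Beyond HSP70, 9 genes of HSP90 and its co-chaperones had a median of -0.17. Of these 9, 3 were lower on both arrays (against 22.8% of all counted genes) and none was higher on both (against 24.5%). The median of the 9 was -0.41 on the first array but 0.06 on the dye-swap array, so it turned with the array. HSP90AB1, the constitutive cytosolic HSP90, gave -0.41 and 0.06. Of 10 chaperonin genes, the ring-shaped chaperones that enclose clients, 4 were higher and 2 lower on both arrays, with a median of 0.06. By array, the median of the 10 was -0.05 on the first and 0.09 on the dye-swap array. HSPD1, the mitochondrial chaperonin, gave -0.67 and -0.16. HSF1, the main heat shock factor, gave -0.36 and 0.15.

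HSPB8, a small heat shock protein that works with BAG3 in clearing damaged proteins, was the only gene of these further chaperone lists past 1.5-fold. It gave -0.92 on the first and -0.80 on the dye-swap array, a mean of -0.86, and 0.721% of counted genes were at or below it. BAG3 itself gave -0.14 and -0.19. Only 4 of the 9 small heat shock protein genes were counted. Among 10 counted genes listed as induced by heat, 5 were lower on both arrays, against 22.8% of all counted genes. Another 4 were higher on both, against 24.5%, and 1 had opposite signs. The median of the list was -0.03, and the list was not tested. The lower ones were HSPA1A, HSPB1, HSP90AA1, HSPD1 and BAG3. The higher ones were HSPA8, described above as constitutive, HSPH1, HSPE1 and DNAJA1.

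**Figure D4:**
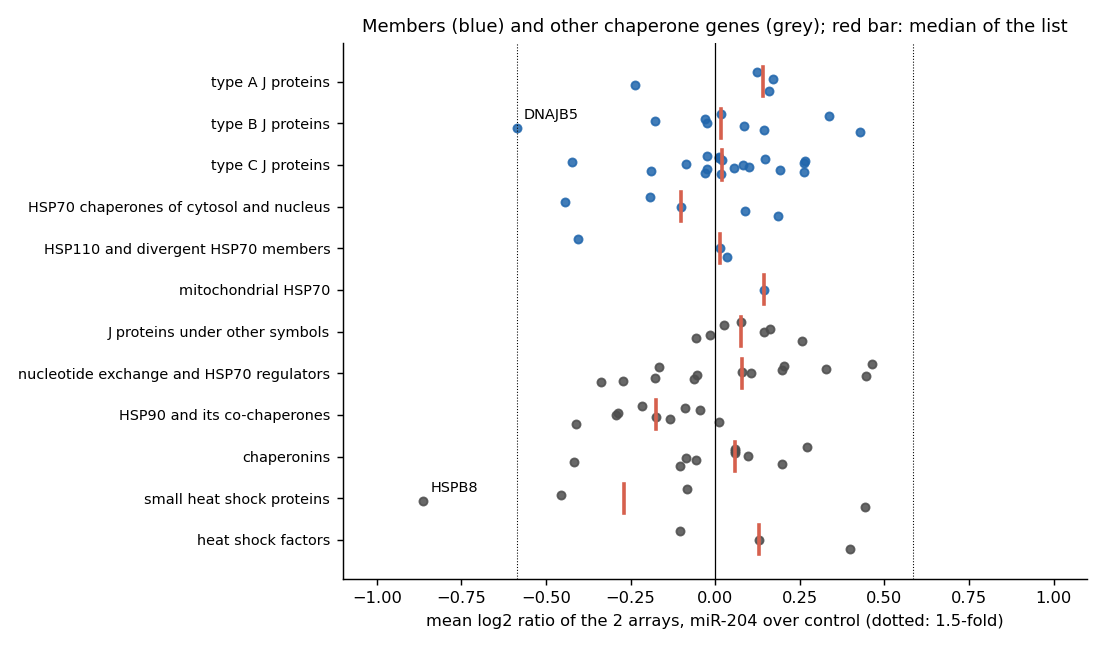
Mean log2 ratio of miR-204 over control for each counted gene (points, members in blue and other chaperone genes in grey) in each list, with the median of the list as a red bar and 1.5-fold as dotted lines. DNAJB5 at -0.59 and HSPB8 at -0.86 lie outside the dotted lines, and the medians of the member lists lie between -0.10 and 0.14.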

How the data were processed

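RNA of HEK-293 cells was read on 2 Agilent arrays of 2 colours that form 1 dye swap and count as 1 replicate. The processed signals the authors deposited are intensity values, corrected for background and dye by Feature Extraction 9.5.3.1, and the mean and background signals are intensity values without correction. The log10 ratio and its p-value, also deposited, were not used for any result printed here. The authors' deposited series table of log2 ratios, quantile normalized between arrays, served as an alternative. Probe positions are on hg18, as the files give them.

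Control spots and 128 probes flagged as outliers (no member) were left out. Spots of a probe were averaged as log2 processed signals and quantile normalized over 4 channels with limma 3.58.1 in R 4.3.3. Of 41000 probes, 25270 passed the signal filter (above the software's background limit in the same RNA on each array), and a gene's ratio is the mean of its counted probes. A gene was called at 2-fold, or 1.5-fold, in the mean with the same sign on both arrays. No main result rests on a test, and the t-test run as an alternative measures the arrays and not the conditions. Precision is limited by how few arrays there are. The main normalization and the 2-fold call were run on simulated signals with no dye effect and with changes larger than any member mean. That run does not show how well changes as small as those of the members are measured.

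By rule, ratios on each array are given for members past 1.5-fold and the 3 lowest and 3 highest. The rule also takes those with probes differing by over 0.5 in log2, and HSPA8, HSPA1A, HSPA9, DNAJA1, DNAJB1 and DNAJA3. Signals are printed for only some of these. HSPB8, HSP90AB1, HSPD1 and HSF1 were named by the same rule, and further genes were named after their values were seen. Members and lists were chosen with earlier results of these data known. Alternatives changed the background correction (normexp with an offset of 50, then loess), normalization, filter, probe summary, arrays, threshold and test.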

Additional observations from a re-analysis of the deposited data

How the results depend on the processing

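No member passed 2-fold in either direction under any alternative that kept that threshold, and at 1.5-fold in the mean 1 was lower. The count lower by 1.5-fold, 1 with DNAJB5, was 0 with normexp and loess and 0 with the authors' table, where DNAJB5 was at -0.57 and -0.58, just short of the limit. With 1 array left out it was 2 and 2: DNAJB5 and HSPA1A on the first array alone, DNAJC6 and HSPA12A on the dye-swap array alone. The count higher by 1.5-fold ranged from 0 to 1 with an array left out (DNAJB9, on the first array alone). These 1.5-fold counts under each setting were added after seeing the data. The median over members, 0.02, was 0.0514 over probes detected in all 4 channels, 0.0519 for the brightest probe of each gene, and 0.0167 to 0.0611 with an array left out. The cause was not tested. Over 10 alternatives, DNAJB5 (-0.61 to -0.57), HSPA1A (-0.71 to -0.18), DNAJC15 (-0.54 to -0.31), DNAJB9 (0.18 to 0.68), DNAJB11 (0.29 to 0.46), DNAJC14 (0.03 to 0.33), DNAJA1 (0.02 to 0.22) and HSPA8 (0.13 to 0.24) kept their direction. The sign of DNAJA3, HSPA9 and DNAJC8 turned on the dye-swap array alone, to 0.02, -0.00 and 0.02, and that of DNAJB1 on the first array alone, to -0.09. With the brightest probe it turned for DNAJA5 (-0.13), DNAJC8 (0.05) and HSPA12A (0.06), the last also with the filter on all 4 channels. HSPA12A was at -0.04 with normexp and loess. The methods' t-test over the 4 channels, which measures the arrays and not the conditions, gave an unadjusted p under 0.05 for 10 of 66 member probes (15.2%, against 6.35% of all counted probes), 0 after Benjamini-Hochberg adjustment and 0 past 2-fold. That test counted probes of the same gene separately, some of them overlapping, so its shares are not of independent genes. Each ratio set miR-204 against control within 1 array. No paired test over replicates was possible because both arrays belong to 1 replicate of 1 comparison. Array signal over background limits the dim probes of DNAJC6, HSPA12A, DNAJB2 and HSPA6.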
